A study of Mus musculus with 9 samples.

Results

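Mitochondrial tRNA-Glu-TTC, the product of the mouse gene mt-Te, was described by the end of the tRNA that its small RNA fragments came from. Its reads formed 4 features, the 5′ end, the 3′ end without CCA, the CCA end and the other part, which is all reads of the tRNA that the files place at none of these ends. These 4 were taken from 960 features with at least 1 read in any library, and all 4 were among the 520 features abundant enough to enter the fit. The tRNA (mt_tRNA-Glu-TTC in the files) was chosen by the measured levels of its ends in these same libraries and groups, so its values are a description. The test over all features included its 4 parts, and their calls are given but not read as evidence about this tRNA.

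Small RNAs were profiled by PANDORA-seq in 9 libraries of atrial appendages from C57BL/6 mice, 3 libraries a group. Curcumin-treated mice were 18 months old and had received 100 mg/kg curcumin, a polyphenol of turmeric, each day in non-fat skim milk between 12 and 18 months of age. Old mice were 18 months old without curcumin, and young mice were 5 months old without curcumin. The design names 3 mice a group, randomly divided, and the labels do not say whether each library is 1 mouse. It does not say whether mice without curcumin received the milk, and the labels name no sex.

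A mitochondrial tRNA for glutamate carries this amino acid to the ribosomes inside mitochondria. Mitochondrial genes are transcribed as long precursors, RNase P cuts these at the 5′ end of each tRNA and RNase Z at its 3′ end, and an enzyme then adds the letters CCA, where the amino acid is attached. Where the gene itself does not end in these letters, a fragment that ends in CCA therefore comes from a tRNA whose 3′ end had been completed. A fragment at the 3′ end without CCA can come from before that step or from a tRNA whose CCA was lost, and the files do not tell these apart. In PANDORA-seq the enzyme AlkB takes off methyl groups at which reverse transcriptase would stop, and T4 polynucleotide kinase makes the ends of cut RNA fit for adapters, so that modified fragments can be read. The gel fraction held 15 to 45 nucleotides, less than a whole tRNA.

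The gene mt-Te lies at chrM:14071-14139 on the minus strand of GRCm38 (mm10) and is 69 bases long (ENSMUSG00000064369.1). It is one of the tRNAs of the light strand. On that strand mt-Nd6, a subunit of respiratory complex I, follows it directly, at 13552 to 14070 with 0 bases between them. On the other strand mt-Cytb, a subunit of complex III, lies 5 bases away, at 14145 to 15288. The sequences of tRNA-Glu and of the mitochondrial tRNAs whose end fragments varied most like its own are shown, since the values concern their 2 ends. The gene mt-Ty itself ends in cca, so a Tyr fragment without the added CCA can also end in these letters. How the files assign such a fragment is not given, and this limit holds for every CCA end value of Tyr-GTA below. The sequences are the GENCODE M21 gene sequences, written 5′ to 3′ as DNA, with the anticodon in capitals and with the CCA that is added after transcription in capitals at the end:
mt-Te, tRNA-Glu-TTC: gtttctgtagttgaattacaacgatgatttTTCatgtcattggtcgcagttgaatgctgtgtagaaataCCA
mt-Ty, tRNA-Tyr-GTA: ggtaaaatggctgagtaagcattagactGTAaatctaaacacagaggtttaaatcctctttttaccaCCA
mt-Tl2, tRNA-Leu-TAG: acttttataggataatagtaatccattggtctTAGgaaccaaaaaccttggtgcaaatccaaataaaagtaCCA

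The anticodon of mt-Te takes bases 31 to 33, so a fragment from either end of this tRNA up to the anticodon has a length within the gel fraction. mt-Te shared a run of at most 8 letters with any of the other 21 mitochondrial tRNA genes, shorter than the smallest insert of 15 nucleotides. Its reads were whole numbers in every file. The gene ends in ATA without CCA: 100% of the 5′ end reads and 99.8% to 100% of the reads at the 3′ end without CCA matched the genome, against 0.89% to 2.84% of the CCA end reads. The files count reads per end and give neither the length nor the first base of a fragment.

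tRNA-Glu was among the most abundant mitochondrial tRNAs in these libraries. Its reads per library numbered 213264, 111713 and 96636 in curcumin-treated mice, against 141008, 140784 and 115682 in old mice, and 182618, 98702 and 98647 in young mice. They made up 0.646% to 1.22% of the clean reads in curcumin-treated mice, 0.691% to 0.875% in old mice and 0.631% to 0.927% in young mice. In CPM (reads scaled to a fixed total of feature reads by edgeR, with TMM scaling), the whole tRNA averaged 8903 ± 3300 in curcumin-treated, 9836 ± 1434 in old and 9302 ± 623 in young mice (SD, n = 3 for each group mean in the text). These 3 groups overlapped, and the mean over the 9 libraries, 9347 CPM, ranked 3rd among the 22 mitochondrial tRNAs. In bulk tissue, fewer cells of a type and less RNA per cell cannot be told apart.

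Clean reads ranged from 12899427 to 19707803 per library, and 83.7% to 87.3% of them fell in features. The 3 libraries numbered 1, 1 in each group, stood apart from the other 6 at tRNA 3′ ends and in other measures. Of their reads 72.2% to 73.7% matched the genome, against 65.0% to 68.3% in the other 6. All miRNAs summed to 38113 CPM in old library 1, against 16876 and 28461 in old libraries 2 and 3. In young mice these sums were 44300 against 19369 and 24638 CPM. In curcumin-treated mice library 1 lay lower, at 33166 against 40901 and 40871 CPM. For 19 of the 22 mitochondrial tRNAs the 3′ end without CCA was highest in library 1 of every group, and for 7 of 22 the CCA end was lowest in library 1 of every group. Values within each number are therefore given beside the group values. The tissue label was set against miRNA markers: 9 of 9 muscle miRNAs had reads, with summed levels of 11909 to 17630 CPM in curcumin-treated, 5182 to 13726 in old and 6209 to 17083 in young mice. The endothelial miR-126a stood at 8783 to 9342, 4178 to 9781 and 4615 to 10451 CPM, and 2 smooth muscle miRNAs summed to 604 to 750, 239 to 634 and 306 to 654 CPM, in the same order of groups. Red blood cell markers (4 of 4 with reads) summed to 25.4 to 58.1, 44.0 to 58.5 and 55.0 to 281 CPM. Leukocyte markers (2 of 3 with reads) summed to 42.8 to 51.6, 23.4 to 37.7 and 27.4 to 85.7 CPM. No entry under the name mir-142 had reads, and other names of this miRNA were not searched. Epithelial markers (5 of 5), neuronal markers (3 of 6) and the liver marker miR-122 stayed under 5 CPM in each library. The neuronal markers without reads were mir-124-1, mir-124-2 and mir-124-3, searched under these names only. The part of these markers, and of the libraries numbered 1, in the values of tRNA-Glu was not tested.

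Setting curcumin-treated against old mice addresses treatment at the same age. Here the 5′ end and the CCA end of tRNA-Glu lay in opposite directions. The 5′ end stood at 1122, 1079 and 767 CPM in curcumin-treated mice, against 257, 403 and 539 CPM in old mice. Every curcumin library lay above every old library, with means of 989 ± 194 and 400 ± 141 CPM. The fitted log2 change was 1.31 (SE 0.33), and the ratio of means was 2.48. Of all 520 features, 32 (6.15%) were higher without overlap in this comparison, and 67 (12.9%) had no overlap in either direction. Within numbers 1, 2 and 3 the log2 differences were 2.12, 1.42 and 0.51, with number 3 the smallest. Their shared sign follows from the lack of overlap and adds nothing to it.

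The CCA end lay the other way. It stood at 1552, 1488 and 1627 CPM in curcumin-treated mice, against 2210, 3559 and 3321 CPM in old mice. The 3 curcumin libraries lay close together and all below the lowest old library, with means of 1556 ± 69.3 and 3030 ± 720 CPM. The fitted log2 change was −0.96 (SE 0.25), the ratio of means was 0.513, and the differences within numbers 1, 2 and 3 were −0.51, −1.26 and −1.03. In all, 35 of 520 features (6.73%) were lower without overlap in curcumin-treated mice. No feature of the series passed the test in this comparison: edgeR's quasi-likelihood test called 0 of 520 (0%) at a Benjamini-Hochberg adjusted p under 0.05, with 21 at an unadjusted p under 0.05, and DESeq2 called 0, with 29. Without the 3 libraries numbered 1 edgeR called 73 of 519 features (14.1%), 34 higher and 39 lower. Both ends were among them, at log2 changes of 0.98 and −1.14, but nothing is read from this, since the tRNA was chosen on the same contrast.

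**Figure D1:**
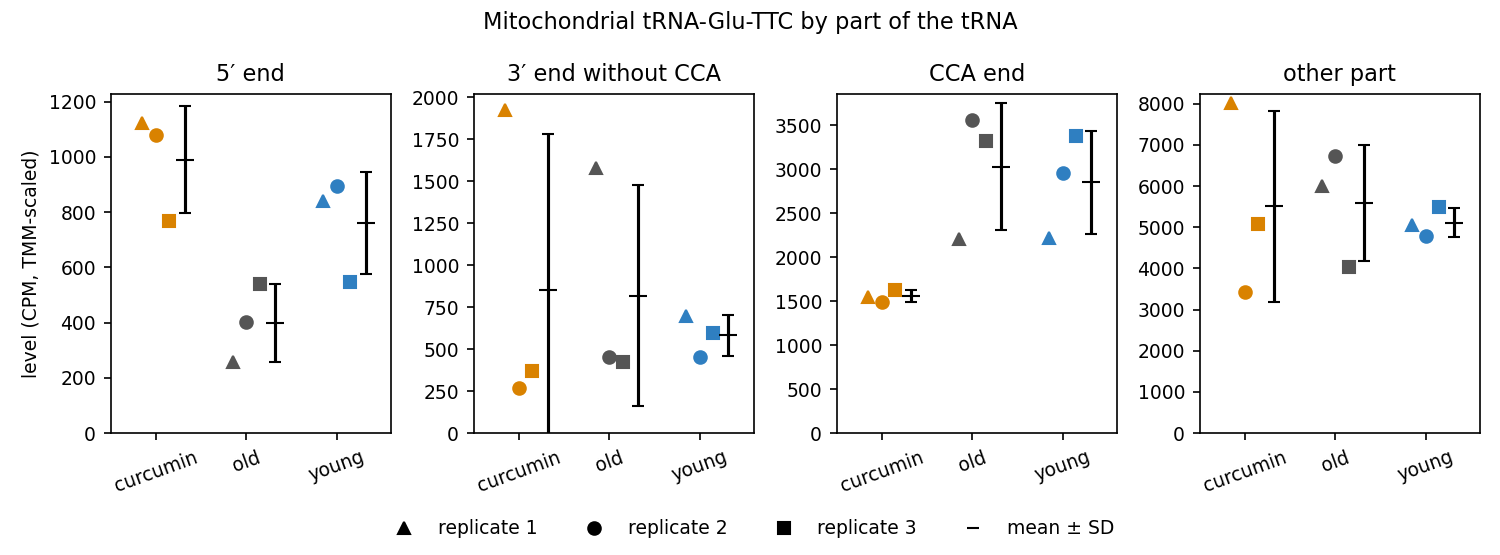
Level of each part of mitochondrial tRNA-Glu-TTC in CPM (y axis, linear, from 0) in curcumin-treated, old and young mice; points are libraries, with 1 symbol for each replicate number, and bars are mean ± SD of 3 libraries, cut at 0 for the 3′ end in curcumin-treated mice. The 5′ end lies at 767 to 1122 CPM in curcumin-treated and 257 to 539 CPM in old mice, the CCA end at 1488 to 1627 and 2210 to 3559 CPM, and the other 2 parts overlap between all groups.

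Setting old against young mice addresses age. The 5′ end stood at 257, 403 and 539 CPM in old mice, against 839, 894 and 548 CPM in young mice. All old libraries lay below all young ones, but the highest old and the lowest young library, both numbered 3, were close to each other. The means were 400 ± 141 and 760 ± 186 CPM, and the fitted log2 change was −0.93 (SE 0.32). Within numbers 1, 2 and 3 the log2 differences were −1.70, −1.15 and −0.03, so number 3 showed almost none. The share of all features lower without overlap in old mice was 2.31%, 12 of 520, and that of features without overlap in either direction 4.62%.

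The CCA end of old and young mice overlapped. It stood at 2210, 3559 and 3321 CPM in old mice and at 2222, 2960 and 3375 CPM in young mice, with means of 3030 ± 720 and 2852 ± 584 CPM. The fitted log2 change was 0.09 (SE 0.25), and within numbers 1, 2 and 3 the differences were −0.01, 0.27 and −0.02. In this comparison edgeR called 0 of 520 features (0%), with 5 at an unadjusted p under 0.05, and DESeq2 called 0, also with 5.

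Curcumin-treated mice also differ from young mice in age, and the same libraries of each group serve in 2 of the 3 comparisons, so these are not independent of each other. The 5′ end levels of these groups overlapped, with a log2 change of 0.38 (SE 0.32) and differences of 0.42, 0.27 and 0.49 within numbers 1, 2 and 3. It was 0.25 without young library 3 and 0.60 without young library 2. The CCA end was lower in every curcumin library than in every young library, at means of 1556 ± 69.3 and 2852 ± 584 CPM. Its log2 change was −0.87 (SE 0.25), with −0.52, −0.99 and −1.05 within the numbers, and 29 of 520 features (5.58%) were lower without overlap, beside 54 (10.4%) in either direction. edgeR called 0 features (0%), with 19 at an unadjusted p under 0.05. DESeq2 called 1 (0.192%), with 30 unadjusted, and that feature was the 5′ end of nuclear tRNA-His-GTG, which is no fragment of tRNA-Glu. Without the 3 libraries numbered 1 edgeR called 67 of 519 features (12.9%), with the CCA end among them at −1.02 and the 5′ end not, at 0.36, and again nothing is read from this.

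The order of the 5′ end means was curcumin-treated, young, old, and the order of the CCA end means was old, young, curcumin-treated. Curcumin-treated and young mice were not separated beyond their spread at the 5′ end, nor were old and young mice at the CCA end. The neighbouring groups without overlap in CPM were young and old mice at the 5′ end, and young and curcumin-treated mice at the CCA end. At the 5′ end old and young library 3 were close, at 539 and 548 CPM, and by share of tRNA-Glu reads these groups overlapped.

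The 3′ end without CCA was dominated by the libraries numbered 1 and showed no order of the groups. It stood at 1922, 269 and 370 CPM in curcumin-treated mice, against 1580, 452 and 425 CPM in old mice, and 696, 455 and 598 CPM in young mice. Library 1 was 6.02 times the mean of libraries 2 and 3 in curcumin-treated mice, 3.60 times in old mice and 1.32 times in young mice. The group means were 853 ± 927, 819 ± 659 and 583 ± 121 CPM. The fitted log2 changes were 0.06 (SE 0.74) for curcumin-treated against old, 0.49 (SE 0.75) for old against young and 0.55 (SE 0.75) for curcumin-treated against young mice. Without the 3 libraries numbered 1 they were −0.46, −0.26 and −0.72, each with the other sign. Leaving out library 1 of curcumin-treated mice alone gave −1.33 against old and −0.84 against young mice, and leaving out library 1 of old mice alone gave 1.02 for curcumin-treated against old and −0.42 for old against young mice. The value near 0 in curcumin-treated against old mice also turned negative without old library 2 (−0.24), old library 3 (−0.34) or young library 1 (−0.03), so it has no stable sign.

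The other part, the largest of the 4, did not separate the groups. It stood at 8007, 3426 and 5079 CPM in curcumin-treated mice, against 5993, 6742 and 4027 CPM in old mice, and 5051, 4785 and 5480 CPM in young mice. The log2 changes were −0.02 (SE 0.32) for curcumin-treated against old, 0.13 (SE 0.32) for old against young and 0.11 (SE 0.32) for curcumin-treated against young mice. Without single libraries these ran from −0.35 to 0.19, −0.02 to 0.29 and −0.24 to 0.30, so none kept its sign throughout. Much of this part did not match the genome. The reads that matched made up 30.6%, 56.2% and 49.1% of it in curcumin-treated mice, against 45.0%, 43.9% and 59.0% in old mice, and 41.1%, 60.3% and 62.2% in young mice. The matched reads varied less than the others in curcumin-treated and old mice. They ran from 1924 to 2495 CPM in curcumin-treated, 2375 to 2961 in old and 2075 to 3407 in young mice, while the reads that did not match ran from 1502 to 5553, 1652 to 3781 and 1898 to 2976 CPM. What sets the unmatched reads apart from the genome is not given in the files.

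As shares of the reads of tRNA-Glu, which do not depend on the scaling between libraries, the 5′ end took 8.90%, 17.2% and 9.78% in curcumin-treated mice, against 2.56%, 3.61% and 6.48% in old mice, and 9.52%, 9.83% and 5.48% in young mice. The curcumin libraries all lay above the old ones, while old and young mice overlapped through library 3 of each. The CCA end took 12.3%, 23.8% and 20.7% in curcumin-treated mice, against 22.01%, 31.9% and 39.96% in old mice, and 25.2%, 32.5% and 33.7% in young mice. By share, curcumin-treated and old mice overlapped at the CCA end through curcumin library 2 and old library 1, although their CPM did not. Curcumin-treated mice lay below young mice in all libraries. The mean difference of curcumin-treated less old mice was 7.75 percentage points for the 5′ end, −12.3 for the CCA end, −0.22 for the 3′ end without CCA and 4.81 for the other part. Single libraries moved these differences. The 5′ end had 5.12 without curcumin library 2, and 9.29 at most, without curcumin library 1. The CCA end had −8.02 without old library 3, and −17.0 without old library 1. The other part had 0.94 without old library 3, 2.93 without curcumin library 3 and 7.96 without curcumin library 2. The 3′ end without CCA, near 0, moved without each of the 6 libraries, from −3.80 without curcumin library 1 to 3.50 without old library 1. The Wilson 95% interval of any such share had a margin of 0.312 percentage points or less. It covers counting error alone, and whether PCR copies were removed is not stated in the sources used. Shares of 1 tRNA sum to 100%, so a higher share of one end lowers the rest.

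**Figure D2:**
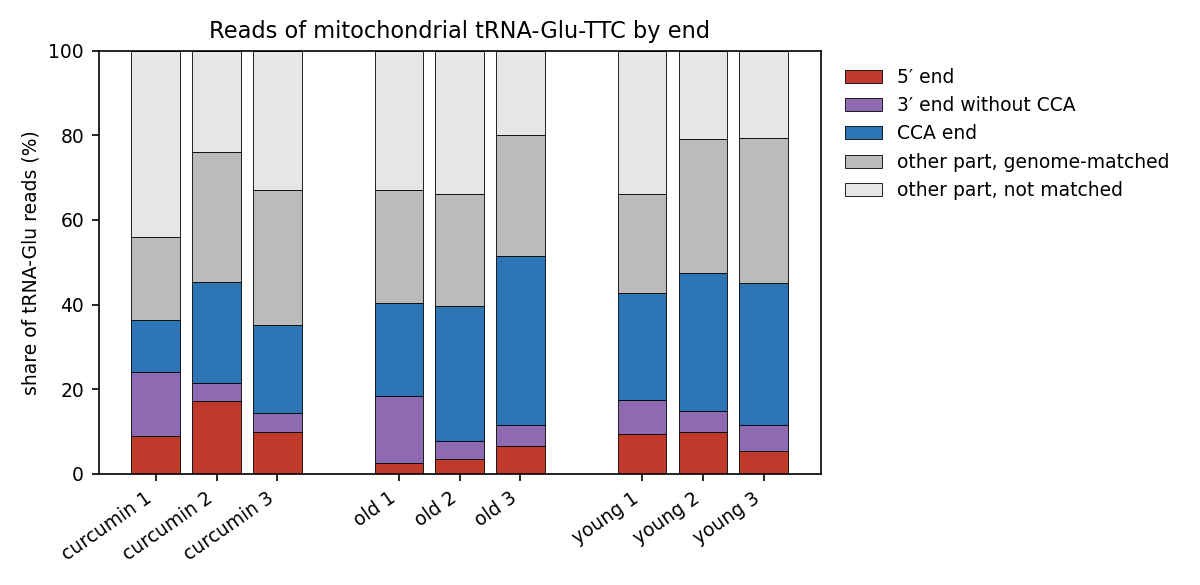
Share of mitochondrial tRNA-Glu-TTC reads (y axis, %, linear) in each of the 9 libraries, stacked by end, with the other part divided by whether its reads matched the genome. The 5′ end takes 8.90% to 17.2% of the reads in curcumin-treated, 2.56% to 6.48% in old and 5.48% to 9.83% in young libraries, and the 3′ end without CCA reaches 15.2% and 15.7% in libraries 1 of curcumin-treated and old mice.

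The ratio of 5′ end to CCA end reads within a library needs no scaling and holds both ends in 1 number. It was 0.723, 0.725 and 0.472 in curcumin-treated mice, against 0.116, 0.113 and 0.162 in old mice, and 0.377, 0.302 and 0.162 in young mice. All curcumin libraries lay above all old and all young ones, and old library 3 and young library 3 differed only in the fourth decimal. On the log2 scale the mean difference was 2.28 for curcumin-treated against old mice, −1.04 for old against young mice and 1.25 for curcumin-treated against young mice. This ratio was added after the levels had been seen.

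Other mitochondrial tRNAs gave the setting for these values. Of the 22, tRNA-Glu had the highest mean level of the 3′ end without CCA, 752 CPM, where the other 21 had a median of 10.4 CPM and a maximum of 138 CPM in Leu-TAG. This end also took a larger share of tRNA-Glu reads, 7.56%, than of the reads of any other mitochondrial tRNA, the next being Phe-GAA with 4.43%. Reads of the other part that did not match the genome made up 29.2% of tRNA-Glu reads, again the highest of the 22, followed by 20.8% in Leu-TAG, beside a median of 6.43% over the other 21. The 5′ end ranked 5th with 716 CPM, the CCA end 3rd with 2479 CPM, and the other part 2nd with 5399 CPM after 8537 CPM in His-GTG. These levels are not divided by length.

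In curcumin-treated against old mice the 5′ end of tRNA-Glu had the highest fitted log2 change of the 22 5′ ends. The tRNA was chosen by these levels, so its rank is a description only. The other 21 had a median of 0.06, with 11 positive and 10 negative, and ran from −1.13 in Pro-TGG to 1.07 in Tyr-GTA. Counted with Glu, 12 of 22 were positive, beside 294 of all 520 features. Under clean-read totals in place of TMM 18 of 22 were positive, but so were 383 of 520 features. When the mitochondrial parts were scaled among themselves 17 of 22 were positive, beside 52 of the 88 parts. Without overlap, 3 of 22 5′ ends were higher (Glu-TTC, Tyr-GTA and Met-CAT) and 1 was lower (Leu-TAA, at means of only 2.70 and 4.09 CPM). Over all 520 features 32 (6.15%) were higher and 35 (6.73%) lower without overlap. The 5′ end of tRNA-Tyr-GTA averaged 201 ± 88.02 CPM in curcumin-treated and 96.0 ± 3.26 CPM in old mice. The next highest changes were 0.63 in Trp-TCA (270 ± 33.8 and 175 ± 108 CPM) and 0.53 in Ser-GCT (25274 ± 2018 and 17503 ± 8511 CPM). At the low end, Pro-TGG averaged 831 ± 130 and 1820 ± 1296 CPM, Lys-TTT 60.4 ± 11.0 and 104 ± 72.1 CPM, and His-GTG 16.6 ± 7.10 and 28.7 ± 8.91 CPM. The Pro-TGG and Lys-TTT means of old mice carry large SDs.

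Lower CCA ends in curcumin-treated mice were not limited to tRNA-Glu. Of the other 21 CCA ends 16 had negative and 5 positive fitted changes against old mice, with a median of −0.36. Including Glu, 8 of 22 were lower without overlap, beside 35 of all 520 features (6.73%). Counted with Glu, 17 of 22 were negative, and 13 of 22 when clean-read totals replaced TMM, which moved the median of all 520 features from 0.08 to 0.31 and that of the CCA ends from −0.37 to −0.13. tRNA-Glu had the 4th lowest value. Pro-TGG stood lowest, at −1.80 (209 ± 39.0 and 731 ± 538 CPM), then Ser-GCT at −1.07 (30.3 and 63.6 CPM) and Leu-TAG at −1.06 (2318 ± 347 and 4828 ± 1214 CPM). The highest were Gln-TTG at 0.53, Trp-TCA at 0.27 and Asn-GTT at 0.10. In curcumin-treated against young mice 9 of 22 CCA ends were lower without overlap, beside 29 of all 520 features (5.58%). Over all 520 features the median log2 change was 0.08 against old and −0.01 against young mice. None of the 88 mitochondrial tRNA parts passed edgeR's test in any of the 3 comparisons.

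**Figure D3:**
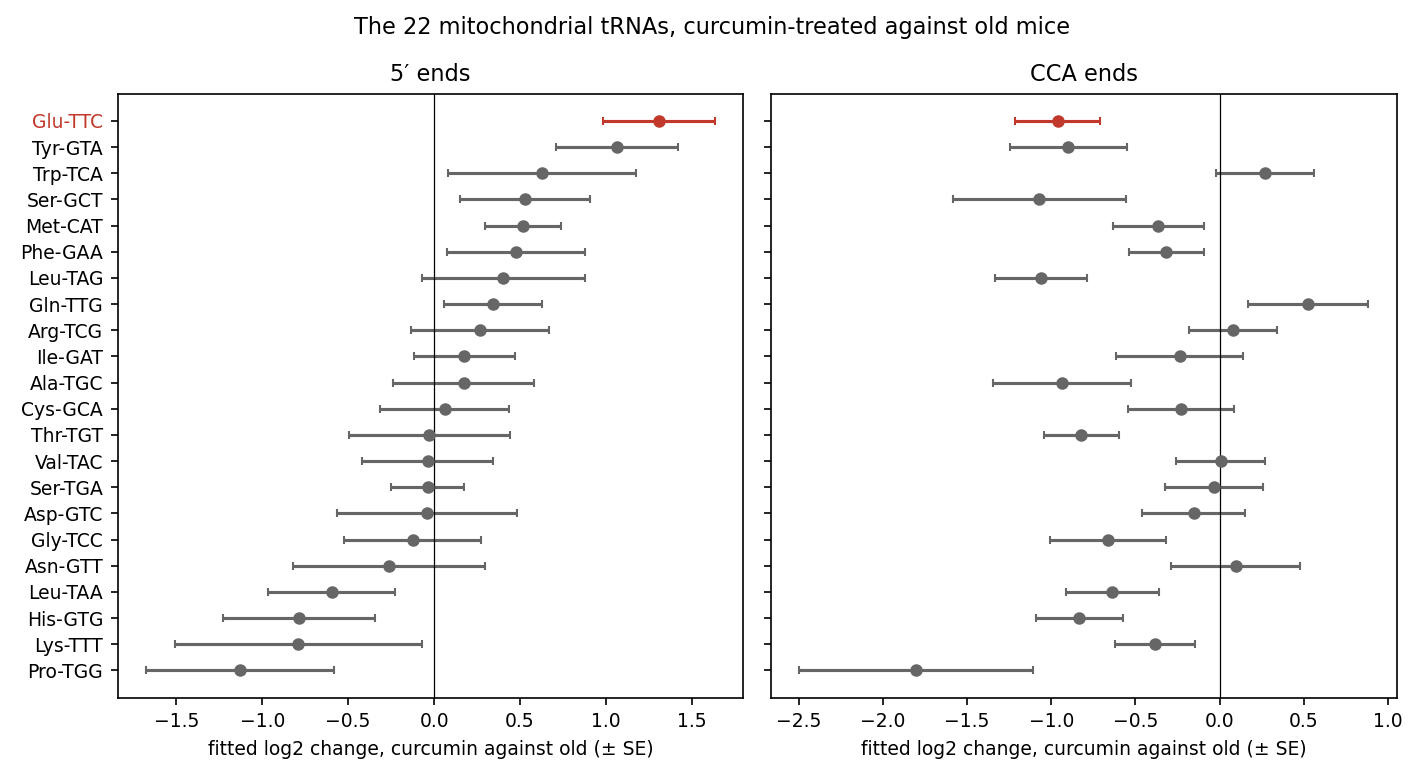
Fitted log2 change of curcumin-treated against old mice (x axis) for the 5′ end (left) and CCA end (right) of each of the 22 mitochondrial tRNAs, ordered by the 5′ end; points are fitted values and bars are ± 1 SE. tRNA-Glu, in red, has the highest 5′ end value, 1.31, and the 4th lowest CCA end value, −0.96. CCA ends lie below 0 in 17 of 22 tRNAs, beside 226 of all 520 features. Under clean-read totals in place of TMM these counts are 13 of 22 and 137 of 520.

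In old against young mice 19 of 22 mitochondrial 5′ ends had fitted values below 0, also under each other scaling tried. Their median was −0.36, beside −0.04 over all features. Among them, tRNA-Glu at −0.93 was 2nd after Trp-TCA at −0.97 (175 CPM in old and 341 CPM in young mice). Asp-GTC at −0.79 and Arg-TCG at −0.71 came next, and Leu-TAA at 0.61, His-GTG at 0.27 and Cys-GCA at 0.14 were the 3 positive ones. Of the 22, Glu-TTC, Arg-TCG and Tyr-GTA were lower and Leu-TAA was higher without overlap. Leu-TAA had the lowest 5′ end level of the 22, with means of 4.09 CPM in old and 2.69 CPM in young mice. The CCA ends had a median of −0.06 (0.01 with the mitochondrial parts scaled among themselves), 10 positive and 12 negative, and ran from −0.62 in Asp-GTC, −0.41 in Ser-TGA and −0.38 in Asn-GTT to 0.27 in Tyr-GTA and in Ala-TGC and 0.44 in Ser-GCT.

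The ratio of 5′ end to CCA end reads differed more in tRNA-Glu than in any other mitochondrial tRNA in each comparison. This rank is a description only, since tRNA-Glu was chosen by the levels of these ends and the comparisons share libraries. In curcumin-treated against old mice the log2 difference of 2.28 was followed by 1.86 in Tyr-GTA. The other 21 had a median of 0.47, with 18 above 0, and 7 of 22 were higher without overlap. In old against young mice −1.04 was followed by −0.87 in Ala-TGC, with a median of −0.42 over the other 21 and 16 of them below 0. In curcumin-treated against young mice 1.25 was followed by 1.04 in Tyr-GTA.

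**Figure D4:**
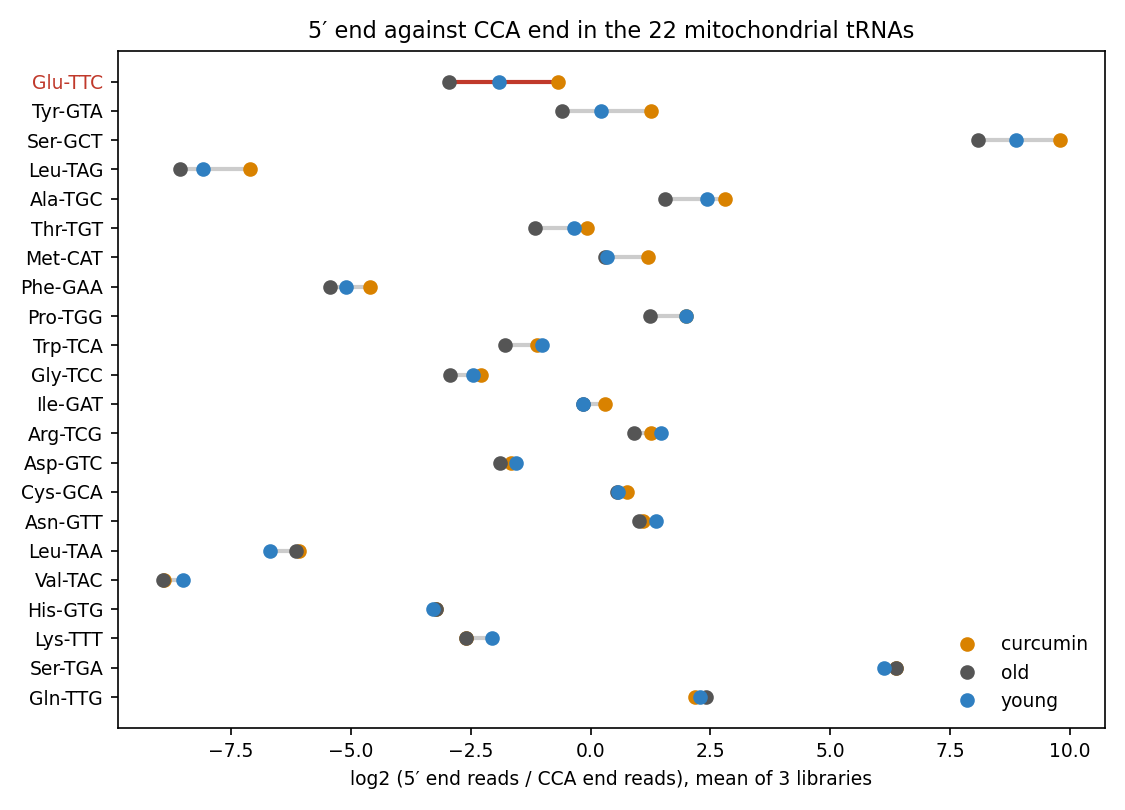
Log2 ratio of 5′ end to CCA end reads (x axis, mean of 3 libraries) in curcumin-treated, old and young mice for each of the 22 mitochondrial tRNAs, ordered by the difference of curcumin-treated less old mice. The line of tRNA-Glu, in red, is the longest between curcumin-treated and old mice, 2.28, with young mice between them, and in 18 of the other 21 the curcumin mean lies above the old mean.

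The 7 other tRNAs of the light strand, which share a long precursor with tRNA-Glu, had fitted changes of both signs. Their 5′ ends had a median log2 change of 0.06 in curcumin-treated against old mice, with 4 positive and 3 negative, and −0.22 in old against young mice, with 1 positive and 6 negative. Tyr-GTA had 1.07 (SE 0.36) and −0.58 (SE 0.35), Ala-TGC 0.17 and −0.42, Gln-TTG 0.35 and −0.20, Cys-GCA 0.06 and 0.14, Ser-TGA −0.04 and −0.15, Asn-GTT −0.26 and −0.37, and Pro-TGG −1.13 and −0.22. Their CCA ends had a median of −0.23 in curcumin-treated against old mice, 2 positive and 5 negative, with −0.90 in Tyr-GTA and −0.94 in Ala-TGC. None of these parts passed the test.

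Nuclear tRNAs for glutamate, which serve the cytoplasmic ribosomes, were set beside the mitochondrial one. Their 8 parts all entered the fit and none passed. The 5′ end of nuclear tRNA-Glu-TTC averaged 618 ± 30.2 CPM in curcumin-treated, 723 ± 111 in old and 644 ± 209 in young mice, and that of tRNA-Glu-CTC 149 ± 27.2, 225 ± 46.1 and 173 ± 61.8 CPM. Both were lower without overlap in curcumin-treated than in old mice, as were 35 of all 520 features (6.73%). The fitted changes were −0.23 (SE 0.27) and −0.60 (SE 0.34), where the mitochondrial 5′ end was higher. That of nuclear tRNA-Glu-TTC was smaller than its SE. Their CCA ends lay on the same side as the mitochondrial one, at 119 ± 16.3, 180 ± 50.5 and 212 ± 132 CPM for TTC and 176 ± 41.4, 344 ± 163 and 355 ± 185 CPM for CTC, with overlap. The 3′ ends without CCA averaged under 5 CPM in each group. The 5′ end took 52.8% of nuclear tRNA-Glu-TTC reads in curcumin-treated, 50.9% in old and 50.4% in young mice. The ratio of 5′ end to CCA end reads of this tRNA was 5.88, 5.70 and 4.25 in curcumin-treated mice, against 6.88, 3.04 and 3.30 in old mice, and 5.39, 2.46 and 3.08 in young mice, so the groups overlapped. No test of the difference between the mitochondrial and nuclear tRNAs was made.

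Among all features of the fit, the 5′ end of mitochondrial tRNA-Tyr-GTA varied most like the 5′ end of tRNA-Glu over the 9 libraries, with Pearson's r = 0.82 and Spearman's rho = 0.92 of log2 CPM. It stood at 294, 190 and 119 CPM in curcumin-treated, 99.6, 95.02 and 93.3 in old, and 165, 160 and 107 in young mice. Next came the 5′ ends of nuclear tRNA-Asn-GTT (r = 0.76), mitochondrial tRNA-Phe-GAA (0.75) and nuclear tRNA-Met-CAT (0.72). Least like it were miR-1843b (r = −0.90), at 5.80 ± 1.58, 9.81 ± 1.51 and 6.61 ± 1.12 CPM in curcumin-treated, old and young mice, and the class of lncRNAs at bidirectional promoters (−0.89).

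The CCA end varied most like the CCA end of mitochondrial tRNA-Leu-TAG, with r = 0.97 and rho = 0.97. That end stood at 1921, 2474 and 2559 CPM in curcumin-treated, 3444, 5713 and 5325 in old, and 3835, 4993 and 6165 in young mice. The other part of mitochondrial tRNA-Asn-GTT (r = 0.95), the CCA end of mitochondrial tRNA-His-GTG (0.93) and the 5′ end of nuclear tRNA-His-GTG (0.92) followed. Least like it were miR-148a and the smooth muscle miRNA miR-143 (r = −0.92 for both). The 2 ends of tRNA-Glu were themselves less alike, with r = −0.53 and rho = −0.62. These correlations are descriptions over libraries that share their scaling, and some of the features compared are made of like fragments. Library 1 did not depart alike in every group. Over the mean of libraries 2 and 3 it was 1.22, 0.55 and 1.16 in curcumin-treated, old and young mice at the 5′ end. At the CCA end it was 1.00, 0.64 and 0.70. The correlations carry no p.

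**Figure D5:**
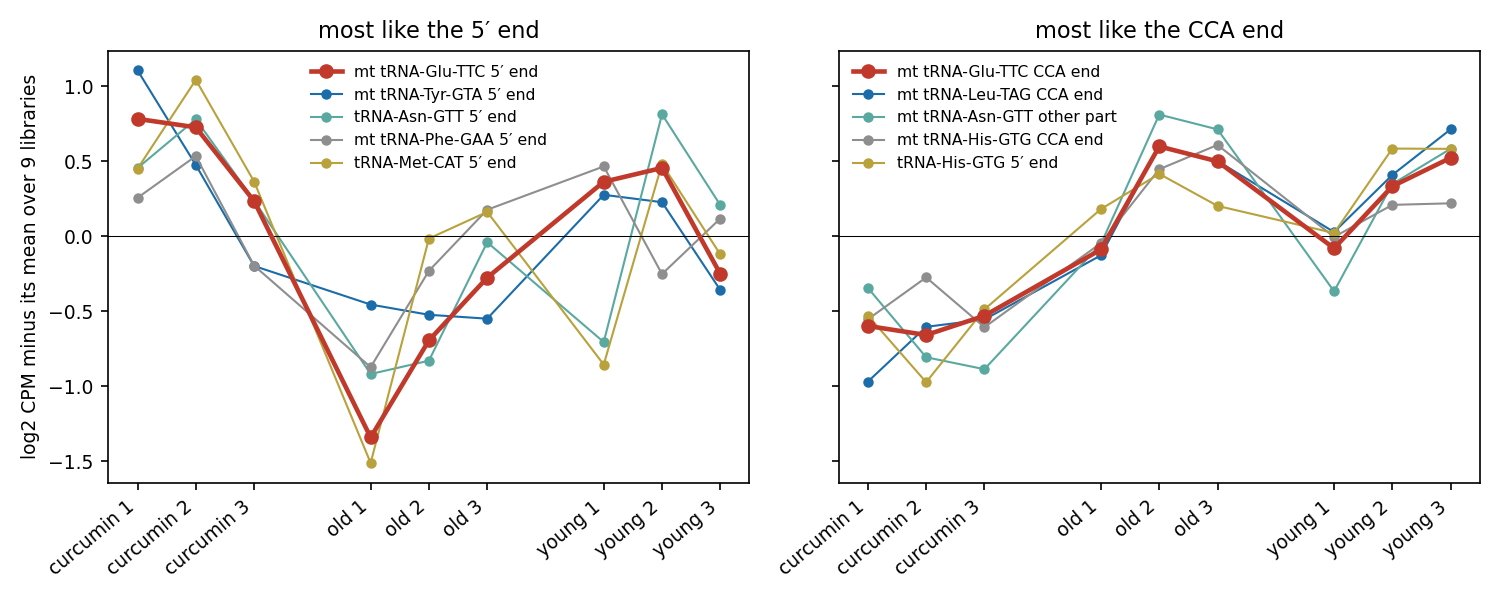
Log2 CPM less its mean over the 9 libraries (y axis) in each library of curcumin-treated, old and young mice, for the 5′ end (left) and CCA end (right) of mitochondrial tRNA-Glu-TTC, in red, and the 4 features with the highest Pearson's r to each. Lines only join the libraries for reading; r runs from 0.72 to 0.82 on the left and from 0.92 to 0.97 on the right.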

How the data were processed

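The deposited values of each annotation are expected counts of reads, not normalized by the authors, with reads that fit several annotations divided among them, per the file headers and values. Per the labels' protocols, RNA was treated with AlkB and T4PNK, a gel fraction of 15 to 45 nucleotides was ligated with a QIAGEN miRNA kit, and inserts were read over 75 cycles. The submitters' processing notes name cutadapt 2.5 and mm10; which tool annotated the reads, how it defines an end and whether molecular identifiers were used is not given in the sources used here. Genome-matched and unmatched reads were summed and rounded to whole numbers. Of 960 features, filterByExpr kept 520, and all 9 libraries entered 1 robust quasi-likelihood fit of edgeR 4.0.16 (R 4.3.3, TMM scaling, group as the only term). Adjusted p are Benjamini-Hochberg over all 520 features, with a threshold of 0.05. The fit was also run on simulated counts, which held no departure of the libraries numbered 1, so nothing is read from that run. DESeq2 1.42.0 was an alternative. Correlations used log2 CPM with a prior count of 2. The ratio of ends had 0.5 reads added to each end on the log2 scale.

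The members and lists were chosen with earlier results of these data known. Named were all 4 parts of tRNA-Glu, the 4 most and 2 least similar features to its 5′ and CCA ends, the 3 highest and 3 lowest of the other mitochondrial 5′ and CCA ends in 2 comparisons, the light-strand tRNAs and nuclear tRNA-Glu. Leu-TAA, Met-CAT and further single species were named for their groups' overlap after their values were seen. Replicate numbers come from the labels, which do not say what they share. Correlations of same-numbered libraries, as deviations from group means, were 0.274, −0.0728 and 0.368 for numbers 1, 2 and 3 in curcumin-treated and old mice, 0.806, 0.624 and 0.271 in old and young mice, and 0.330, 0.193 and 0.277 in curcumin-treated and young mice. The rule that each must exceed 0.1 was met in the comparisons with young mice and not in curcumin-treated against old mice. Libraries of unlike numbers 2 and 3 also correlated, at 0.5425 and 0.3769 in old and young mice. In curcumin-treated and young mice these values were 0.2192 and 0.2242. Those between number 1 and the other numbers were negative in both comparisons. Deviations from a group mean cancel out within the group, so these signs largely follow from the positive values for number 1 and add nothing. In curcumin-treated and old mice unlike numbers 2 and 3 had 0.4902, above each same-numbered value there, and 0.0464. The values thus do not show pairing by numbers 2 and 3. Gene positions and sequences are from GENCODE M21 (GRCm38).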

Additional observations from a re-analysis of the deposited data

How the results depend on the processing

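The 5′ end and CCA end of tRNA-Glu kept the sign of their log2 changes in curcumin-treated against old and against young mice, and the 5′ end in old against young mice, under RLE scaling, clean-read totals, DESeq2, other filters, only the 2 groups, mitochondrial parts alone, genome-matched reads, the replicate block, and without each library in turn. Without single libraries the 5′ end ran from 1.14 to 1.59, from −1.23 to −0.69 and from 0.25 to 0.60 in curcumin-treated against old, old against young and curcumin-treated against young mice, and the CCA end from −1.06 to −0.83, −0.10 to 0.26 and −1.08 to −0.68. The 3′ end without CCA ran from −1.33 to 1.02, −0.42 to 0.81 and −0.84 to 0.88. Its small change in curcumin-treated against old mice also turned sign under the filter of at least 10 CPM in 3 libraries (−0.03) and with the replicate block (−0.17). Without the 3 libraries numbered 1, edgeR called 73 features (14.1% of 519) in curcumin-treated against old mice, 67 (12.9%) against young mice and 0 in old against young mice; the 5′ end then had 0.98, 0.36 and −0.61 and the CCA end −1.14, −1.02 and 0.12, and the 3′ end −0.72 against young mice. Leaving out 1 library at a time gave 0 to 0 features. DESeq2 called 1 feature in curcumin-treated against young mice. With clean-read totals the CCA end had −0.65 in that comparison. The CCA end depends on unmatched reads by its construction: genome-matched reads alone gave −0.065 against old mice and −0.74 in old against young mice. By share of reads, genome-matched reads alone gave differences of 13.9 and −7.87 percentage points for the 5′ end (curcumin-treated less old, old less young), −0.0036 and −0.436 for the CCA end and −11.9 and −9.06 for the other part (curcumin-treated less old, less young). With the 3 ends alone as denominator the 5′ end had 20.7, −9.05 and 11.7 (the last against young mice), the CCA end −22.5 and −19.1, and the 3′ end 7.45 against young mice. Of 156 values of the parts under alternatives other than leaving out 1 library, 140 moved by less than 1 SD and 19 had the other sign, mostly of the 3′ end and other part. The replicate block called 0 features in each comparison and gave 1.30, −0.91 and 0.39 for the 5′ end and −0.93, 0.08 and −0.85 for the CCA end; it changed no call. With 3 libraries a group the spread, not the depth, limits these values.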
